A study of Homo sapiens with 4 samples.

Results

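The tripartite motif (TRIM) genes were examined in T24 cells, an established line of invasive human bladder carcinoma, after treatment with isorhapontigenin (ISO), a stilbene related to resveratrol. TRIM genes were taken as every gene of the expression table whose name is TRIM, a number and at most 1 letter from A to D, which gave 72 genes of 47432. The ISO group had 2 libraries, named ISO a and ISO b, from cells exposed to 20 µM of the compound for 24 h, and the control group had 2 libraries of untreated cells, control a and control b. The labels call the controls untreated, while the methods of the study name DMSO as the vehicle. Whether libraries a and b of a group stand for independent cultures was not given in the sources used here, so p-values are set by the differences between 2 libraries, which may be technical only.

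TRIM proteins share a RING finger, 1 or more B-box zinc fingers and a coiled coil, followed by a variable C-terminal part, and most of them act as E3 ubiquitin ligases, the enzymes that select the proteins to be tagged with ubiquitin. The PRY/SPRY domain found at the C-terminus of many members binds the target, such as an incoming viral capsid. Several members are induced by interferons and serve in antiviral defence, either by attacking the virus itself or by adjusting the RNA and DNA sensing pathways that lead to interferon production. Interferon raises transcription of its target genes through the interferon-stimulated response element (ISRE), which is bound by interferon regulatory factors and their partners. The members were therefore split into 7 that are known to be interferon-inducible (TRIM5, TRIM14, TRIM21, TRIM22, TRIM25, TRIM34 and TRIM38) and the 65 others.

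Expression values are RPKM, reads normalised to exon length in kilobases and to the mapped reads of the library, divided by a trimmed mean of M-values (TMM) factor for each library. The RPKM times exon length moved in equal steps within each library, and the size of 1 step gave 40840886 and 33882412 mapped reads in the ISO libraries and 44790278 and 42326095 in the control libraries. Counted in these steps, reads on genes came to 39028228 and 32349827 in the ISO libraries and 42879427 and 40396212 in the control libraries, so ISO b was the shallowest. At this depth 3 reads on a 1 kilobase transcript correspond to 0.0670 to 0.0885 RPKM. The keratins of simple epithelium and urothelium were high, with KRT7 at 307 and 301 RPKM in ISO libraries and 381 and 376 RPKM in control libraries. Of the 13 epithelial and urothelial markers examined, 7 reached a mean of 0.1 RPKM and were compared, among them GATA3 at 6.43 and 7.45 RPKM in ISO libraries and 4.70 and 5.04 RPKM in control libraries. EPCAM was at 1.17 to 1.29 RPKM and UPK2 at 0.32 to 0.46 RPKM over the 4 libraries, while E-cadherin (CDH1), the basal keratin KRT5 and the plaque genes UPK1B and UPK3A were at or near 0. The sum of the 13 was 727 and 707 RPKM in ISO libraries and 873 and 856 RPKM in control libraries, with 1 marker higher and 3 lower by limma, and the part of this shift in the TRIM results was not tested. Of 7 leukocyte markers, PTPRC and CD3E were among the 4 at 0 in every library, and CD14 was at 3.04 and 3.57 RPKM in ISO libraries and 3.10 and 3.04 RPKM in control libraries. Of 5 endothelial markers, 2 were compared and 1 was lower by limma. Among them CDH5 was at 13.8 and 14.1 RPKM in ISO libraries and 18.1 and 18.0 RPKM in control libraries. Of 5 fibroblast markers, 2 were compared and 1 was higher by limma, and 0 of 5 muscle markers reached the limit. Of the 15304 genes with a mean of at least 0.1 RPKM, 630 were higher (4.12%) and 892 were lower (5.83%) in ISO-treated cells at a Benjamini-Hochberg adjusted p under 0.05 in limma.

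The ISRE core was searched in the RefSeq promoter windows of the TRIM genes, 250 bases before to 50 bases after the annotated gene start, to show what the inducible members share in sequence. The motif was GAAA followed by any 2 bases and a second GAAA, on either strand, and overlapping matches were allowed. Windows were given for 57 of the 72 members, among them 30 of the 40 members whose expression was tested. The motif was found in 4 of the 6 inducible members with a window (66.7%), in 5 of 24 other tested members (20.8%), and in 3.88% of the 10842 tested genes with a window. TRIM22 had no entry, and TRIM25 and TRIM38 had no match in their windows. Each sequence shows the 30 bases around the match, 5′ to 3′ on the strand of the gene, from RefSeq on GRCh38.p14, with the matched bases in capitals. The first 4 are the inducible members, and the other 5 are the tested members outside that group that also held the motif.
TRIM5: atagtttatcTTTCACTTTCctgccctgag
TRIM34: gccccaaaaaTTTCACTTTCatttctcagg
TRIM14: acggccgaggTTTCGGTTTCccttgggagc
TRIM21: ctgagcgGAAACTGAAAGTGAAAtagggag
TRIM69: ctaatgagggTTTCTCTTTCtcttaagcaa
TRIM26: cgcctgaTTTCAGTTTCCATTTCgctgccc
TRIM2: aataaatagaGAAAAGGAAAtaagccgaag
TRIM44: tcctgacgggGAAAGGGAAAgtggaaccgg
TRIM16: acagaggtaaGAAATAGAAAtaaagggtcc

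TRIM5 and TRIM34 held the same 10 bases, read here on the opposite strand of the motif. The 30 bases printed for them lie at chr11:5685082-5685111 (minus strand) and chr11:5624901-5624930 (plus strand). The match of TRIM5 ran from base -27 to base -18 before the RefSeq start, inside an exon that GENCODE gives to TRIM5, and that of TRIM34 from base -90 to base -81. The TRIM14 match ran from base -26 to base -17 and was outside the annotated exons of the gene. Its printed 30 bases lie at chr9:98119229-98119258 on the minus strand. TRIM21 held 2 overlapping matches in an annotated exon, from base 18 to base 33 after the start. The printed 30 bases of TRIM21 lie at chr11:4393663-4393692 on the minus strand. The match of TRIM69 ran from base -62 to base -53, within the printed 30 bases at chr15:44736456-44736485 on the plus strand. The remaining sequences are at chr6:30213578-30213607 (TRIM26, minus strand), chr4:153151936-153151965 (TRIM2, plus strand), chr11:35662730-35662759 (TRIM44, plus strand) and chr17:15683012-15683041 (TRIM16, minus strand). A match describes the letters of the window, and binding of any factor was not measured.

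ISO treatment raised 4 TRIM transcripts and lowered none at the adjusted threshold, out of 40 members with a mean of at least 0.1 RPKM. The 4 were TRIM5, TRIM34 and TRIM14 from the interferon-inducible group and TRIM68 from the rest. In all, 3 of the 7 inducible members (42.9%) and 1 of the 33 other tested members (3.03%) were higher, against 4.12% of all tested genes. The split moved with the setting. It was 4 of 7 and 6 of 33 in limma-voom on recovered reads, beside 8.02% of all genes tested there. Without TMM scaling it was also 4 of 7 and 6 of 33, beside 9.3%. With the replicate letter as a block it was 2 of 7 and 1 of 33, beside 567 of 15304 genes. Every change was small, since log2 fold changes of the 40 members lay between -0.27 and 0.38. The median was 0.19 over the inducible members, 0.07 over the other tested members and -0.00015 over all tested genes. At an unadjusted p under 0.05, 15 of the 40 members were higher and 1 was lower, where 12.8% and 14.3% of all tested genes were.

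TRIM5, a restriction factor whose SPRY domain binds the capsid of incoming retroviruses, had the firmest increase. It was at 7.05 and 7.32 RPKM in ISO a and ISO b, against 5.73 and 5.55 RPKM in control a and control b. Both ISO libraries lay above both control libraries, and the gap between groups was several times the gap within either group. The increase was 1.27-fold (log2 fold change 0.34, SE 0.047, 95% interval 0.23 to 0.46, limma adjusted p = 0.01), from 1560 and 1366 recovered reads in ISO libraries and 1339 and 1235 in control libraries. With ISO b left out, the limma adjusted p was 0.059.

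TRIM34, a close relative of TRIM5 and its neighbour on the chromosome, rose by nearly the same factor. Its level was 3.83 and 3.56 RPKM in ISO libraries and 2.96 and 2.79 RPKM in control libraries, with no overlap. The log2 fold change was 0.35 (SE 0.064, 95% interval 0.20 to 0.50, limma adjusted p = 0.023). It did not pass without ISO a, ISO b or control b, at limma adjusted p values of 0.1, 0.063 and 0.086. A readthrough gene, TRIM6-TRIM34, covers 83.6% of the TRIM34 exons on the same strand and was credited with 0 reads in both ISO libraries and in control a, and 25 in control b. How shared reads were divided was not given in the sources used here.

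TRIM14, which lacks a RING finger and sits on mitochondria as a scaffold of the antiviral adaptor MAVS, rose less and from a higher level. It was at 11.5 and 11.9 RPKM in ISO libraries and 10.2 and 10.3 RPKM in control libraries. The control libraries were nearly equal, and the ISO libraries were above them by more than their own difference. TRIM14 shares 7.70% of its exon bases with the gene NANS on the opposite strand. As no strand setting was given, the source of reads there cannot be told apart. The log2 fold change was 0.19 (SE 0.040, 95% interval 0.09 to 0.28, limma adjusted p = 0.035), and without any 1 of the 4 libraries the limma adjusted p was between 0.083 and 0.13.

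TRIM22 is an antiviral member whose gene lies on the opposite strand within the span that GENCODE gives TRIM5. It had the highest fold change of the family but did not pass the test. Its values were 1.31 and 1.55 RPKM in ISO libraries and 1.15 and 1.01 RPKM in control libraries. The groups did not overlap, but the 2 ISO libraries were further apart than ISO a was from control a. The log2 fold change was 0.38 (95% interval 0.10 to 0.65, limma adjusted p = 0.09). It passed in limma-voom on recovered reads (adjusted p = 0.0032) and where only genes with a mean of at least 1 RPKM were tested (limma adjusted p = 0.045).

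TRIM25, the ligase that attaches ubiquitin chains to the RNA sensor RIG-I, was among the most abundant members. It had 18.1 and 18.4 RPKM in ISO libraries and 16.9 and 17.1 RPKM in control libraries. Its log2 fold change was 0.10 (95% interval 0.014 to 0.19, limma adjusted p = 0.13). TRIM21, a cytosolic antibody receptor also known as the autoantigen Ro52, was at 18.0 and 18.6 RPKM in ISO libraries, against 17.5 and 16.6 RPKM in control libraries. Its log2 fold change was 0.10 (95% interval -0.0019 to 0.20, limma adjusted p = 0.19). For both genes the ISO libraries were above the control libraries, and the test was not passed.

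TRIM38, which limits inflammatory signalling downstream of Toll-like receptors, was the exception among the inducible members. It had 1.91 and 1.81 RPKM in ISO libraries and 1.96 and 1.87 RPKM in control libraries, and the groups overlapped. The log2 fold change was -0.04 (95% interval -0.21 to 0.13, limma adjusted p = 0.79), and 0.02 without TMM scaling. Both ISO libraries lay above both control libraries in the other 6 inducible members, where 28.3% of all tested genes had that order.

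**Figure D1:**
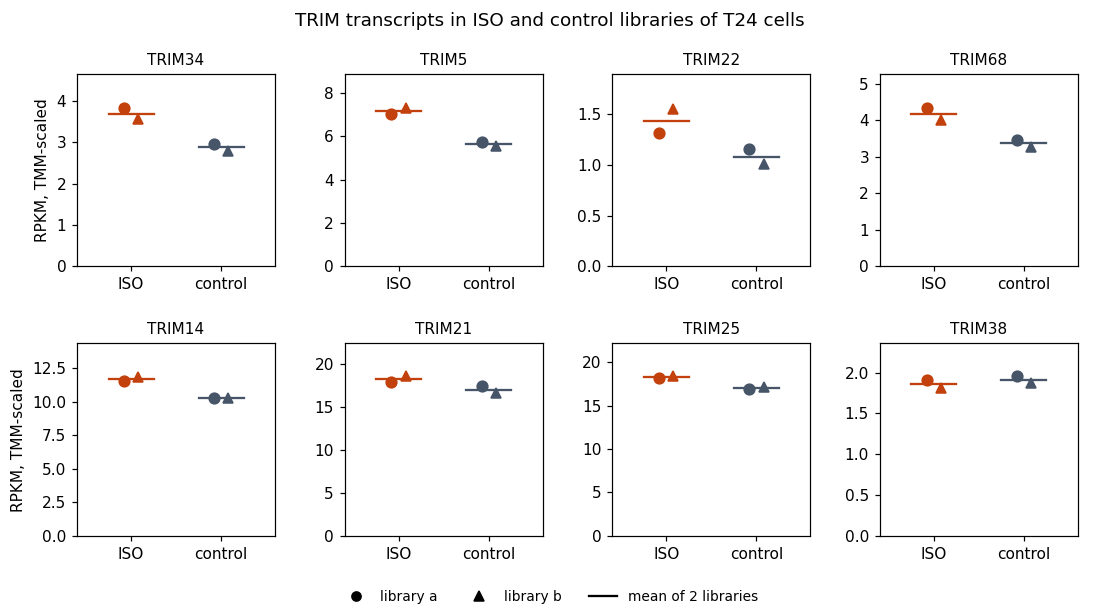
Levels of the 7 interferon-inducible TRIM genes and TRIM68 in each library, as TMM-scaled RPKM on linear axes that start at 0, with ISO libraries in orange on the left, control libraries in grey on the right, and a line at the mean of 2 libraries. ISO points lie above control points in every panel except TRIM38, by the widest margin relative to the level in TRIM22, TRIM34, TRIM5 and TRIM68.

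TRIM68 was the member outside the inducible group that rose. It encodes a RING and PRY/SPRY ligase related to TRIM21 and described as an autoantigen and as a coactivator of the androgen receptor. The level was 4.33 and 4.02 RPKM in ISO libraries and 3.47 and 3.27 RPKM in control libraries, with no overlap. Its log2 fold change was 0.30 (SE 0.063, 95% interval 0.15 to 0.45, limma adjusted p = 0.034). Without any 1 of the 4 libraries the limma adjusted p was between 0.062 and 0.13. No ISRE core was found in its promoter window.

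TRIM28 and TRIM8 led the family in abundance. TRIM28, also called KAP1, is the corepressor that zinc finger proteins of the KRAB class recruit to silence endogenous retroviruses. It alone held 25.7% of the summed RPKM of the tested members, with 86.4 and 86.6 RPKM in ISO libraries and 82.2 and 81.4 RPKM in control libraries (log2 fold change 0.08, 95% interval -0.00097 to 0.16, limma adjusted p = 0.19). TRIM8, a ligase that promotes NF-κB signalling, was at 43.0 and 44.8 RPKM in ISO libraries and 39.4 and 40.2 RPKM in control libraries (log2 fold change 0.14, 95% interval 0.05 to 0.23, limma adjusted p = 0.067). In both genes the ISO libraries were above the control libraries by a narrow margin. A divergent transcript, TRIM8-DT, overlaps 19.3% of the TRIM8 exons on the other strand. The source of reads in that overlap cannot be told apart, as no strand setting was given in the sources used here. Whole reads in all 4 libraries were recovered for 39 of the 40 tested members, TRIM8 being the exception. The TRIM8 exon length used here may thus differ from that of the authors, and with it the overlap and the recovered reads.

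TRIM8-DT itself rose. It was at 8.10 and 8.39 RPKM in ISO libraries and 5.45 and 6.36 RPKM in control libraries (log2 fold change 0.48, 95% interval 0.30 to 0.66, limma adjusted p = 0.015). It is a non-coding gene outside the family, picked out after its values were seen.

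The other abundant members did not pass the test. TRIM37, a MATH-domain ligase that controls centriole number and is mutated in mulibrey nanism, was nearest to it, at 11.1 and 10.8 RPKM in ISO libraries and 9.69 and 9.84 RPKM in control libraries (log2 fold change 0.17, limma adjusted p = 0.052). TRIM47, a PRY/SPRY ligase, was at 8.97 and 9.88 RPKM in ISO libraries and 8.24 and 7.77 RPKM in control libraries (log2 fold change 0.23, limma adjusted p = 0.061). For TRIM47, 51.6% of the exon bases are shared with an opposite-strand gene. TRIM37 passed in 5 of 13 other settings and TRIM47 in 4.

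TRIM27, also known as the RET finger protein, had 15.0 and 15.1 RPKM in ISO libraries and 14.6 and 14.2 RPKM in control libraries (log2 fold change 0.06, limma adjusted p = 0.34). TRIM32, an NHL-repeat ligase mutated in a limb-girdle muscular dystrophy, had 14.2 and 13.4 RPKM in ISO libraries and 12.88 and 12.95 RPKM in control libraries (log2 fold change 0.09, limma adjusted p = 0.23). TRIM44, a RING-less member, was the only one of the 10 most abundant members in which both ISO libraries were below both control libraries. Its values were 12.5 and 12.5 RPKM in ISO libraries and 13.02 and 13.24 RPKM in control libraries (log2 fold change -0.07, 95% interval -0.16 to 0.02, limma adjusted p = 0.29).

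Among all 40 tested members, the log2 fold change was positive in 29 and negative in 11. Both ISO libraries were above both control libraries in 23 members, and below them in 6, where 28.3% and 28.8% of all tested genes had those orders. The groups overlapped in the remaining 11. Outside the inducible group, 17 of 33 members had both ISO libraries above and 6 had both below. Some signs turned with the setting. Without TMM the median over all tested genes was 0.06, and TRIM33, TRIM38 and TRIM39 turned positive. The sign changed in 6 members without ISO b (TRIM4, TRIM6, TRIM38, TRIM39, TRIM45 and TRIM66), in 3 without control a (TRIM2, TRIM6 and TRIM66) and in 2 without control b (TRIM35 and TRIM39). It also changed in 2 members in limma-voom on recovered reads (TRIM6 and TRIM39). None of these members passed the test.

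**Figure D2:**
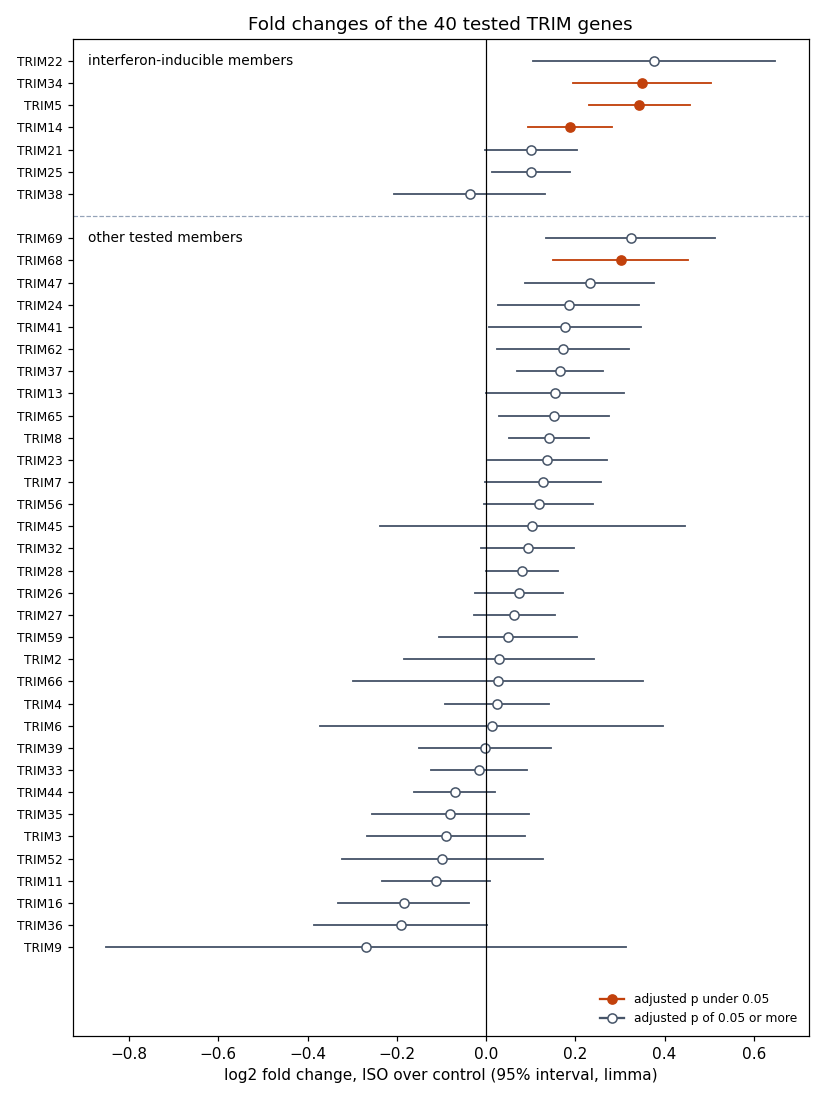
Log2 fold change of ISO over control for the 40 tested TRIM genes, with 95% intervals from limma; the 7 interferon-inducible members are above the dashed line and the 33 others below it, and filled orange points have an adjusted p under 0.05. The filled points are TRIM34, TRIM5 and TRIM14 above the line and TRIM68 below it, and fold changes run from -0.27 (TRIM9) to 0.38 (TRIM22).

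By architecture, the 33 listed members with a RING finger and a PRY/SPRY domain included 20 that were tested. TRIM5, TRIM34 and TRIM68 of these rose, none fell, 16 had a positive log2 fold change, and the median was 0.11. Of all tested genes, 4.12% were higher, 5.83% were lower and 49.9% were positive. The 20 include all inducible members but TRIM14, so the calls of TRIM5 and TRIM34 are the same ones counted in that group. The 4 members with a PHD finger and a bromodomain (TRIM24, TRIM28, TRIM33 and TRIM66) had no call and a median of 0.05. Of the members with NHL repeats, which include RNA-binding proteins, 3 were tested, with no call and a median of 0.03. The 2 tested members with a COS box, which directs them to microtubules, and a PRY/SPRY domain were both negative and neither passed (TRIM36 at -0.19, limma adjusted p = 0.19; TRIM9 at -0.27, limma adjusted p = 0.53). TRIM9 was also the lowest tested member, at 0.135 and 0.106 RPKM in ISO libraries and 0.171 and 0.159 RPKM in control libraries.

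Among the 4 tested members without a RING finger, TRIM14 rose and the other 3 did not pass. TRIM16, which takes part in the response to oxidative and proteotoxic stress, was the member with the lowest unadjusted p among those with a negative change, and was picked out for it. It was at 5.61 and 6.15 RPKM in ISO libraries and 6.90 and 6.50 RPKM in control libraries, with both ISO libraries below both control libraries (log2 fold change -0.18, 95% interval -0.33 to -0.04, limma adjusted p = 0.11). In limma-voom on recovered reads it was called lower. TRIM16L, a near-identical copy, was at 5.57 and 5.78 RPKM in ISO libraries and 5.27 and 4.99 RPKM in control libraries (log2 fold change 0.14, limma adjusted p = 0.13). Reads that fit both copies may have been divided between them, so the opposite signs are uncertain. TRIM16 also shares 23.5% of its exon bases with a same-strand gene and 6.33% with an opposite-strand gene.

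A further 5 members outside the 7 have been described as interferon-responsive (TRIM6, TRIM26, TRIM31, TRIM56 and TRIM69), and 4 of them were tested. None passed, and their median log2 fold change was 0.10, with 1 of the 4 at an unadjusted p under 0.05. TRIM69, a centrosomal ligase with antiviral activity, was nearest, at 1.66 and 1.77 RPKM in ISO libraries and 1.39 and 1.31 RPKM in control libraries (log2 fold change 0.32, 95% interval 0.14 to 0.51, limma adjusted p = 0.052). It was picked out after its values were seen. TRIM6, which builds free ubiquitin chains used in interferon signalling, was at 0.719 and 1.03 RPKM in ISO libraries and 0.837 and 0.867 RPKM in control libraries, and the groups overlapped (log2 fold change 0.01, 95% interval -0.37 to 0.40, limma adjusted p = 0.97).

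The TRIM5 locus groups several of these genes. On chromosome 11 (hg38, GENCODE), TRIM6 lies at chr11:5596109-5612958, TRIM34 at chr11:5619764-5644398, TRIM5 at chr11:5663195-5938619 and TRIM22 at chr11:5689610-5737089, with TRIM5 on the minus strand and the others on the plus strand. TRIM6 to TRIM22 span 141 kb. The RefSeq windows of TRIM5 (chr11:5685025-5685324) and TRIM34 (chr11:5624751-5625050) lie inside these GENCODE spans, so the annotations differ in the start of both genes. TRIM68 (chr11:4598672-4608231) and TRIM21 (chr11:4384897-4393702) lie on the minus strand towards the end of the short arm. Of 80 genes in the table between TRIM21 and the end of TRIM5, 7 were tested, and 6 of those were TRIM genes. The 3 that rose (TRIM34, TRIM5 and TRIM68) did not include TRIM6, which sits next to TRIM34 at a log2 fold change of 0.01. Over chromosome 11 as a whole, 47 of 869 tested genes were higher (5.41%) and the median log2 fold change was -0.01. TRIM6 and TRIM34 share exons with the readthrough gene TRIM6-TRIM34 (29.2% of TRIM6 and 83.6% of TRIM34 exon bases). TRIM5 and TRIM22 share 7.1% and 5.6% of theirs with genes outside the family.

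Promoter motif and response can be set side by side only as counts. Of the 4 inducible members whose window held the ISRE core, TRIM5, TRIM34 and TRIM14 rose and TRIM21 did not pass. Of the 5 other members that held it, none passed, with log2 fold changes of 0.32 in TRIM69, 0.07 in TRIM26, 0.03 in TRIM2, -0.07 in TRIM44 and -0.18 in TRIM16. TRIM68 rose without it. Among all genes called higher, 45 of 469 with a window held the motif (9.59%), a set chosen by its expression in these libraries.

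TRIM proteins that carry other names did not pass the test either. PML, the scaffold of nuclear bodies and itself an interferon target, was at 8.88 and 8.998 RPKM in ISO libraries and 9.005 and 8.38 RPKM in control libraries (log2 fold change 0.04, 95% interval -0.08 to 0.16, limma adjusted p = 0.65). MID1, a microtubule-bound ligase, had a log2 fold change of -0.09 (limma adjusted p = 0.46), and its paralogue MID2 had -0.17 (95% interval -0.31 to -0.03, limma adjusted p = 0.12). MEFV, which encodes pyrin, had 8 and 11 reads in ISO libraries and 9 and 3 reads in control libraries and was not tested.

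Gene lists outside the family were read from the same fit. Of 28 interferon-stimulated genes outside the family, 19 were higher and none was lower, beside 4.12% of all tested genes called higher. Their median log2 fold change was 0.51, and all 28 were positive, where 49.9% of all tested genes were. The count of 19 was 12 without ISO b, 12 without control b and 9 without the filter on low values. Of 17 genes for RNA sensing and interferon signalling, through which TRIM25, TRIM14, TRIM38 and TRIM6 act, 5 were higher and none was lower, with a median of 0.10. This count was 3 without ISO a, 0 without ISO b, 2 without control a, 3 without control b and 0 without the filter. Of 14 ubiquitin-conjugating (E2) enzymes, the partners that hand ubiquitin to RING ligases, 2 were higher and none was lower, with a median of -0.02. The E2 count was 0 without ISO a, ISO b or control b and 1 without control a, was 0 without the filter, and was 1 with median-of-ratios scaling, with either other pseudocount and with the replicate block. The E2 median was 0.015 without ISO b and 0.04 without TMM scaling.

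**Figure D3:**
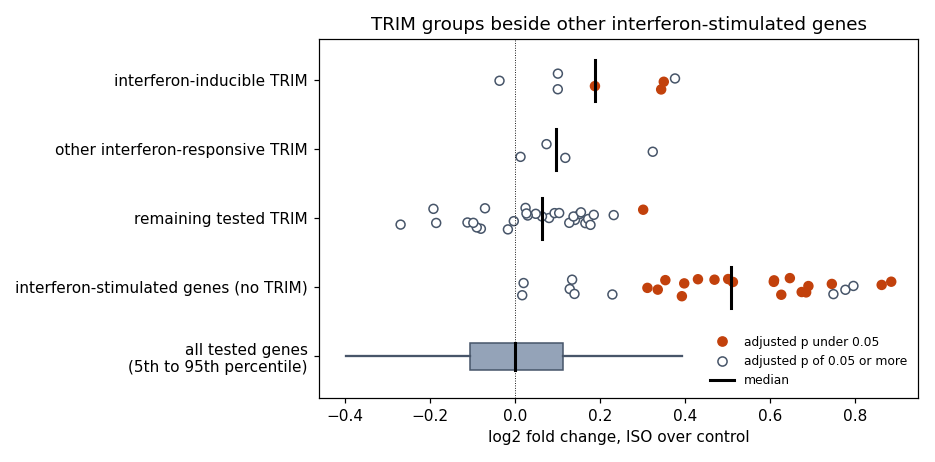
Log2 fold change of ISO over control for single genes in 3 groups of TRIM genes and in 28 interferon-stimulated genes outside the family, with black lines at the medians and filled orange points at an adjusted p under 0.05 (limma); the bottom row shows the 5th to 95th percentile, the quartiles and the median of all 15304 tested genes. The inducible TRIM genes centre on 0.19 and the other interferon-stimulated genes on 0.51, while all tested genes centre on 0.

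The other 32 members were below the expression limit. In 24 no read was recorded in any library (TRIM10, TRIM15, TRIM40, TRIM42, TRIM43, TRIM43B, TRIM48, TRIM49B, TRIM49C, TRIM50, TRIM51, TRIM54, TRIM55, TRIM58, TRIM60, TRIM61, TRIM63, TRIM64, TRIM64B, TRIM64C, TRIM67, TRIM72, TRIM75 and TRIM77). A count of 0 allows up to 3 reads, which in ISO b is 0.00943 to 0.0654 RPKM for these genes, depending on exon length. TRIM54, TRIM55, TRIM63 and TRIM72 among them are ligases of striated muscle. The other 8 (TRIM17, TRIM29, TRIM31, TRIM46, TRIM49, TRIM71, TRIM73 and TRIM74) had at most 13 reads in a library and were not compared.

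Which members passed depended on the libraries and on the scaling. TRIM5 passed in 11 of 13 other settings, TRIM34 in 9, TRIM68 in 8 and TRIM14 in 7. Fewer members passed in each fit with 1 library left out than with all 4 libraries, and fewer of all tested genes did too. The log2 fold changes in those fits were 0.32 to 0.37 for TRIM5 and 0.30 to 0.40 for TRIM34. They were 0.25 to 0.36 for TRIM68 and 0.17 to 0.21 for TRIM14. Without ISO b, 11 of 40 members were higher and 1 lower at an unadjusted p under 0.05, where 10.8% and 11.7% of all tested genes were. In limma-voom on all 4 libraries, 10 of 40 members were higher at an adjusted p under 0.05, beside 8.02% of all genes tested there. Without TMM scaling 10 of 40 members were higher and none lower, the additions being TRIM8, TRIM25, TRIM28, TRIM37, TRIM47 and TRIM69. With that setting 1424 genes were higher (9.3%) and 630 lower (4.12%), so higher genes made up 69.3% of calls, against 41.4% with TMM.

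**Figure D4:**
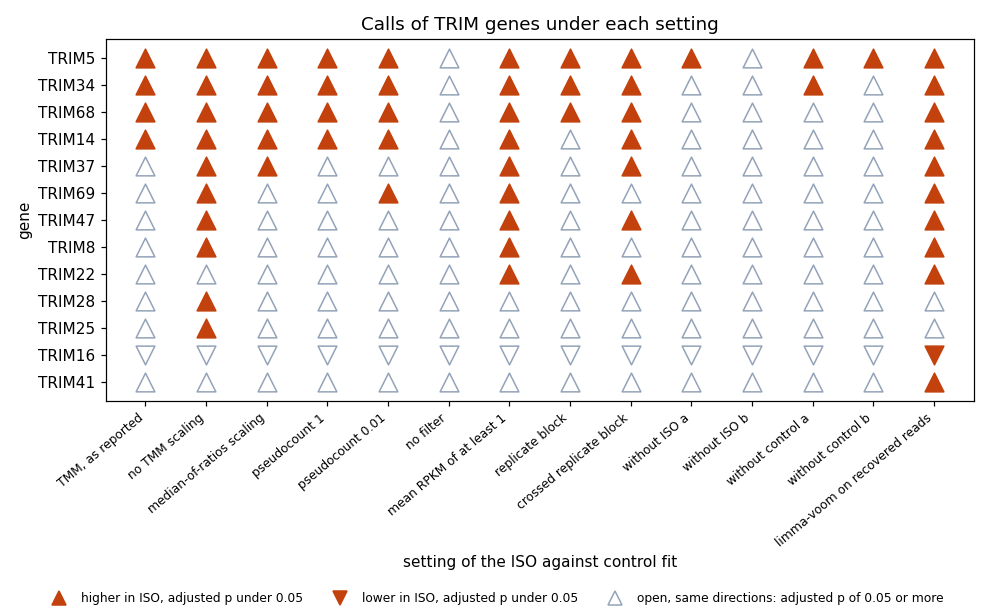
Calls for the 13 TRIM genes that passed the test in at least 1 setting, with settings across and genes down; triangles point up for a higher and down for a lower level in ISO libraries, and filled ones have an adjusted p under 0.05 in that setting. TRIM5, TRIM34, TRIM68 and TRIM14 have the most filled triangles, no triangle is filled where all genes above 0 were tested or where ISO b was left out, and TRIM16 is filled once, pointing down.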

How the data were processed

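RNA-seq libraries of T24 cells were made with a TruSeq kit. The authors trimmed the reads, aligned them to hg38, took the sum over exons as the level of a gene, and deposited it as RPKM without TMM scaling. No counts were used: RPKM times GENCODE 44 exon length, divided by the step worth 1 read in each library, gave whole reads (within 0.05) for 98.8% of values above 0 in each library. TMM factors (0.975 to 1.03) were computed from these reads, trimming 30% of log ratios and 5% of levels. The deposited RPKM were divided by them and tested as log2(RPKM + 0.1) with limma 3.58.1 (variance trend, R 4.3.3), ISO minus control, over 15304 genes averaging 0.1 RPKM or more, so low genes have understated fold changes. P-values were Benjamini-Hochberg adjusted over all tested genes and called under 0.05. The fit was also run on simulated counts with known fold changes, a check of the code that does not bear on the calls given here.

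Named were the 7 inducible members, every called member, the 10 with the highest mean RPKM, any uncalled member with an absolute log2 fold change of at least 0.5 (there were 0), and PML, MID1, MID2 and MEFV. Other members with values (TRIM2, TRIM6, TRIM9, TRIM16, TRIM26, TRIM36 and TRIM69), and TRIM8-DT and TRIM16L, were picked after their values were seen. Members and lists were chosen with earlier results of these data known.

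Alternatives were no TMM, median-of-ratios scaling, pseudocounts of 1 and 0.01, no filter, a minimum of 1 RPKM, the letter as a block, each library left out, and limma-voom with TMM on recovered reads (mean of at least 10). The authors' group means were not used.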

Additional observations from a re-analysis of the deposited data

How the results depend on the processing

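The fold changes of TRIM5, TRIM34, TRIM68 and TRIM14 were positive in all 13 other settings, with log2 fold changes of 0.32 to 0.37, 0.30 to 0.40, 0.25 to 0.36 and 0.17 to 0.21 as single libraries were left out. Without TMM scaling, 1424 genes were higher, 10 of them TRIM members, and the medians were 0.25 for the inducible and 0.13 for the other tested members. Without a filter, 24052 genes were tested, of which 59 were higher and 163 lower, and no TRIM member passed in limma. Of 48 members tested there, 16 were higher and 3 lower at an unadjusted p under 0.05, where 8.44% and 9.88% of all genes were. The median of the 41 members outside the inducible group was 0.027. With a minimum of 1 RPKM, 955 of 10735 tested genes were higher, and 9 of the 36 tested members were. With a pseudocount of 1, the median of the other members was 0.060. In limma-voom on recovered reads, 1207 genes were higher and 1556 lower, with 10 members higher and 1 lower (TRIM16). As each library was left out, genes called higher numbered 148 to 327, genes called lower 336 to 438, members called higher 0 to 2, and the median of the other members ran from 0.077 to 0.092. Leaving an ISO or control library out leaves 1 library in that group, which is assumed to vary like the other group. The causes of these differences were not tested.

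The letters a and b showed no sign of pairing the libraries. Deviations of same-lettered libraries correlated at -0.138 over 5944 genes above 5 RPKM, which with 2 libraries a group cannot exclude pairing. With the replicate block 567 genes were higher and 800 lower, and 3 members passed (TRIM5, TRIM34 and TRIM68). With the pairing crossed, an alternative chosen after seeing the data, 748 genes were higher and 959 lower, and 7 members were higher.

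With 2 libraries a group, members near the threshold were called or lost with the choice of setting. TRIM6, TRIM9 and TRIM66 fell below the minimum of 1 RPKM and have no value there.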
